A study of Mus musculus with 8 samples.

Results

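The genes described here are 8 regulators of meiotic entry in the male mouse germ line, *Stra8*, *Meioc*, *Ythdc2*, *Rbm46*, *Dazl*, *Dmrt1*, *Sohlh1* and *Sohlh2*, taken by name from the 21058 genes of an RNA-seq count table. All 8 were in the table and all 8 had enough counts to be tested. RNA was measured in pachytene spermatocytes of 2 genotypes, *Arid1a* WT and *Arid1a* cKO, with 4 libraries each, purified from pooled testes of adult males by Sta-Put sedimentation, which separates dissociated cells by how fast they sink at unit gravity. Males of the *Arid1a* cKO genotype were *Arid1a* fl/fl; Stra8-Cre Tg/0, hemizygous for a *Stra8-Cre* transgene, and the *Arid1a* WT males were *Arid1a* fl/fl or *Arid1a* fl/+ without Cre, so that floxed alleles were present in both genotypes. The floxed line is kept on a CD1 background. *Stra8-Cre* acts in spermatogonia, before the stage that was purified, and its excision was incomplete, so that *Arid1a* cKO fractions hold a mixture of mutant cells and cells that escaped excision. ARID1A is a putative DNA-binding subunit of the BAF form of the SWI/SNF chromatin remodeler.

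Germ cells enter meiosis after spermatogonia stop dividing by mitosis. Retinoic acid induces STRA8, which acts with MEIOSIN to switch on meiotic genes, while MEIOC, the RNA helicase YTHDC2 and the RNA-binding protein RBM46 work together on transcripts of the mitotic programme and let the meiotic programme persist. DAZL binds germ cell transcripts and promotes their translation. DMRT1 holds spermatogonia back from meiosis, and SOHLH1 and SOHLH2 are basic helix-loop-helix factors that drive spermatogonial differentiation. The libraries come from a later stage than the decision these genes govern, so the values below are levels of their RNA in spermatocyte fractions.

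Estimated counts summed to 18308688 to 22044507 in the *Arid1a* WT libraries and to 15850961 to 21626772 in the *Arid1a* cKO libraries. *Arid1a* itself was at 113 ± 13.8 CPM (counts relative to library size, scaled by TMM, SD, n = 4) in *Arid1a* WT and at 79.7 ± 2.89 CPM (SD, n = 4) in *Arid1a* cKO, and every *Arid1a* cKO library lay below every *Arid1a* WT library. By RT-PCR the authors found RNA of the excised allele, more than of the floxed allele, in *Arid1a* cKO pachytene spermatocytes. Counts per gene include both, so this fall does not measure the extent of the loss of ARID1A. Markers of pachytene spermatocytes such as *Hspa2* and *Ldhc* were abundant in both genotypes. The 16 markers of that stage summed to 10431 to 11861 TPM (an abundance per transcript length) in *Arid1a* WT and to 9260 to 9712 TPM in *Arid1a* cKO, so that the genotypes did not overlap. They went both ways. *Piwil1* went from a mean of 598 TPM to 36.9 TPM and *Mybl1* from 60.9 to 25.3 TPM, while *Pgk2* went from 272 to 701 TPM and *Nme5* from 143 to 275 TPM. Genes were compared with edgeR's quasi-likelihood test and a gene was called where its p, adjusted by the Benjamini-Hochberg method over all genes, did not exceed 0.05. SE stands for standard error. Of the 16 pachytene markers, 9 were called lower in *Arid1a* cKO, 6 higher and 1 was not called. Because 13048 of 17643 genes tested (74.0%) were called, with 36.5% of tested genes higher and 37.5% lower in *Arid1a* cKO, a call on its own does not set a gene apart in these data. In bulk RNA, fewer cells of a type and less RNA per cell cannot be told apart.

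All 8 regulators were called, 5 of them higher and 3 lower in *Arid1a* cKO. The 3 lower genes were *Rbm46*, *Meioc* and *Ythdc2*, whose products act together on RNA. The 5 higher genes were *Stra8*, *Dazl* and the 3 spermatogonial transcription factor genes *Dmrt1*, *Sohlh1* and *Sohlh2*. The log2 fold changes (*Arid1a* cKO over *Arid1a* WT) ran from -1.74 for *Rbm46* to 1.16 for *Sohlh2*, with a median of 0.58, beside a median of -0.02 over all genes tested. In CPM the 4 libraries of one genotype lay wholly above the 4 of the other for each of the 8 genes, as they did for 68.9% of all genes tested (*Arid1a* cKO above in 34.0% and below in 34.9%). *Sohlh2* was at least 1 log2 unit higher, as were 20.6% of tested genes, and *Meioc* and *Rbm46* were at least 1 log2 unit lower, as were 16.0%. A larger absolute change was seen in 16.9% of tested genes for *Rbm46*, in 26.1% for *Meioc*, in 32.7% for *Sohlh2*, in 45.5% for *Dmrt1* and in 49.3% for *Dazl*. The changes of *Stra8*, *Sohlh1* and *Ythdc2* were exceeded by 50.7%, 71.0% and 71.8% of tested genes, and so were of ordinary size for this comparison.

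**Figure D1:**
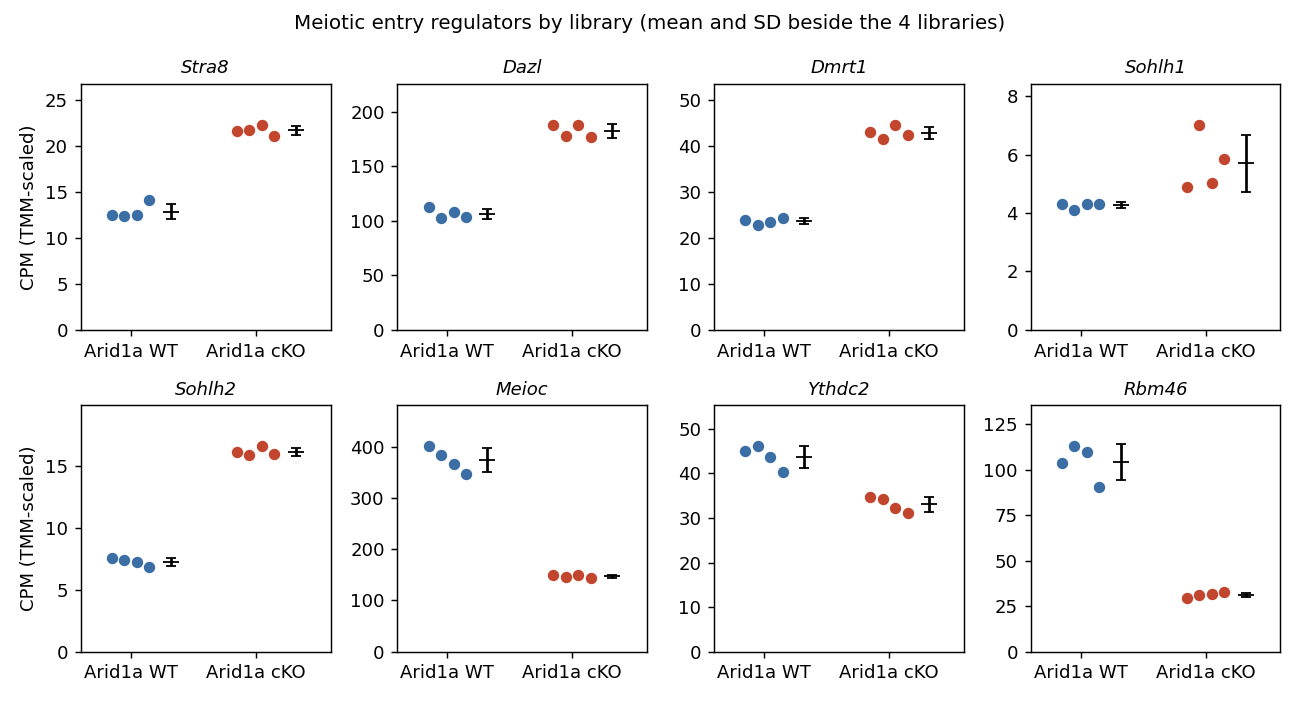
TMM-scaled CPM of each regulator (linear axes from 0) in the 4 *Arid1a* WT (blue) and 4 *Arid1a* cKO (red) libraries, with the mean and SD of each genotype beside the points. In all 8 panels the genotypes do not overlap, with *Arid1a* cKO above in 5 and below in *Meioc*, *Ythdc2* and *Rbm46*.

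*Stra8* is the gene that retinoic acid induces at meiotic entry (chromosome 6 of GRCm38.p6, 34920163 to 34939344, protein-coding). The retinoic acid receptor binds variants of the hexamer AGGTCA, and the RefSeq promoter window of *Stra8* (250 bases before to 50 after an annotated start inside the gene's span, GRCm38.p6, plus strand) holds 2 matches to it, whose first bases lie 194 and 38 bases before that start. They are shown, with the hexamer in capitals, because retinoic acid is the known inducer of *Stra8*. The whole *Stra8* window lies inside the span of the gene, so no stretch of it outside the gene could be shown. Whether the 2 matches lie in exons was not determined.
*Stra8* chr6:34920742-34920771: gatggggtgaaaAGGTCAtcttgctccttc
*Stra8* chr6:34920898-34920927: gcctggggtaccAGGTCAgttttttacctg
Searched on both strands, AGGTCA occurred in 16.3% of 32851 promoter windows of the same length and occurred 2 or more times in 1.81%. A match of letters is a description and not a measured binding site.

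*Stra8* stood at 12.5, 12.4, 12.5 and 14.1 CPM in the *Arid1a* WT libraries and at 21.7, 21.8, 22.3 and 21.1 CPM in the *Arid1a* cKO libraries. The lowest *Arid1a* cKO library was well above the highest *Arid1a* WT library, *Arid1a* WT replicate 4, which sat apart from the other 3. The rise was 1.68-fold (log2 fold change 0.75, SE 0.07, edgeR adjusted p = 8.84e-08), on 249 to 310 estimated counts per *Arid1a* WT library and 328 to 467 per *Arid1a* cKO library. The *Stra8-Cre* transgene, which is driven by *Stra8* promoter sequence, is carried only by *Arid1a* cKO males. The presence of the transgene and the loss of *Arid1a* therefore cannot be told apart, for *Stra8* or for any other gene here. The gene most like *Stra8* over the 8 libraries was *Ascc1* (Pearson r of log2 CPM 0.999), but 754 of 12996 genes compared had an r over 0.99 with *Stra8*. The 8 libraries form 2 genotype clusters, so such an r mostly reflects the difference between genotypes, here and for the genes below.

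The partner of STRA8, MEIOSIN, is listed by RefSeq under *Bhmg1*. *Bhmg1* stood at 3.95 ± 0.284 CPM in *Arid1a* WT and at 18.2 ± 0.583 CPM in *Arid1a* cKO (SD, n = 4 each), and its rise (log2 fold change 2.21, SE 0.08, edgeR adjusted p = 4.53e-12) was above that of *Stra8*, although the difference between the changes of these genes was not tested. Of 24 genes listed as targets of STRA8 and MEIOSIN, with *Bhmg1* among them, 12 were called higher, 11 lower and 1 was not called (median log2 fold change 0.24), where 36.5% of all genes tested were higher and 37.5% lower. The 3 largest rises were those of *Rec8*, a meiotic cohesin subunit (2.50, SE 0.06), *Bhmg1* and *Rad21l*, another meiotic cohesin subunit (2.13, SE 0.15). *Rec8* went from 23.8 ± 2.27 CPM to 134 ± 3.18 CPM (SD, n = 4 each). The 3 largest falls were those of *Spo11*, which makes the meiotic DNA breaks (-2.68, SE 0.07), *Mlh3*, which acts at crossovers (-2.28, SE 0.06), and *Sycp2*, a chromosome axis protein (-1.66, SE 0.08). *Spo11* went from 134 ± 12.3 CPM to 21.0 ± 0.744 CPM (SD, n = 4 each).

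Of 16 tested genes of retinoic acid supply and reception, 6 were called higher, 6 lower and 4 were not called (median log2 fold change -0.12). The higher genes included the receptor *Rxra* (1.30, SE 0.07), the retinol dehydrogenase *Rdh10* (1.06, SE 0.11) and the binding protein *Crabp1* (0.95, SE 0.10). The lower genes included the retinol transporter *Stra6* (-1.44, SE 0.13), the retinaldehyde dehydrogenase *Aldh1a1* (-1.44, SE 0.09) and the receptor *Rxrb* (-0.90, SE 0.08).

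Complexes of the PRC1.6 type, built on MGA, MAX and PCGF6, keep meiotic genes silent before meiosis. Of 12 genes of this group 8 were called lower, 1 higher and 3 were not called, with a median log2 fold change of -0.58. Over all genes tested, 37.5% were called lower and 36.5% higher. *L3mbtl2* fell from 130 ± 6.64 to 24.5 ± 0.679 CPM (SD, n = 4 each, log2 fold change -2.41, SE 0.05). *Pcgf6* fell by 2.07 and *Tfdp1* by 1.89 on the log2 scale (SE 0.05 each), and *Max* fell by 0.94 (SE 0.08). *Cbx3*, which encodes an HP1 protein, rose by 0.55 (SE 0.05). *Mga* was at 69.3 ± 12.1 and 70.7 ± 3.67 CPM (log2 fold change 0.03, SE 0.10, edgeR adjusted p = 0.786), and its value dropped to as low as -0.07 among the other settings. *Rybp*, at -0.35 one of the 8 lower genes, was named after its values were seen, because its direction reversed (up to 0.32) with length offsets recovered from the counts and TPM, and with limma on the log2(TPM + 1) and log2(TPM + 0.1) scales.

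*Meioc* (chromosome 11, 102665351 to 102682240, protein-coding) encodes the partner that YTHDC2 needs in early meiosis. Its levels were 401, 384, 366 and 347 CPM in *Arid1a* WT and 149, 146, 150 and 143 CPM in *Arid1a* cKO. The *Arid1a* cKO libraries were nearly alike, and the lowest *Arid1a* WT library was far above the highest of them. *Meioc* RNA was 2.55-fold lower in *Arid1a* cKO (log2 fold change -1.35, SE 0.05, 95% interval -1.45 to -1.25, edgeR adjusted p = 1.04e-11). *Lsm14b* was the gene most like it (r = 0.999 over the 8 libraries), with 1115 genes over an r of 0.99.

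*Ythdc2* (chromosome 18, 44827730 to 44889720, protein-coding) encodes an RNA helicase with a YTH domain that can read N6-methyladenosine. It was at 44.9, 46.0, 43.6 and 40.4 CPM in *Arid1a* WT and at 34.8, 34.1, 32.3 and 31.1 CPM in *Arid1a* cKO. The gap between the lowest *Arid1a* WT and the highest *Arid1a* cKO library was about as wide as the spread within a genotype. *Ythdc2* fell 1.32-fold (log2 fold change -0.40, SE 0.06, 95% interval -0.52 to -0.29, edgeR adjusted p = 2.29e-05), a change of about the size of that of *Sohlh1* in the other direction. Its nearest gene by pattern was *Capza2* (r = 0.995), and only 3 genes had an r over 0.99 with it.

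*Rbm46* (chromosome 3, 82836521 to 82876512, protein-coding) encodes the third RNA-binding partner of this group. It was at 104, 113, 110 and 90.6 CPM in *Arid1a* WT and at 29.7, 30.9, 31.9 and 32.6 CPM in *Arid1a* cKO. Even *Arid1a* WT replicate 4, the lowest of its genotype, was well over the *Arid1a* cKO range. *Rbm46* RNA was 3.34-fold lower (log2 fold change -1.74, SE 0.07, edgeR adjusted p = 1.28e-11), the largest change among the 8 genes. *Swi5* was most like it (r = 1.000 to 3 decimals over the 8 libraries), and *Tardbp*, next in order, had nearly the same log2 fold change of -1.74.

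The 3 genes fell by unequal amounts, so the ratios among them within a library differed between genotypes. Per length, *Meioc* RNA was at 1.58 to 1.86 times the level of *Rbm46* RNA in the *Arid1a* WT libraries and at 2.07 to 2.40 times in the *Arid1a* cKO libraries. The ratio of *Ythdc2* to *Rbm46* went from a geometric mean of 0.132 to 0.320, and that of *Meioc* to *Ythdc2* from 13.0 to 7.06. These ratios of TPM values were not tested, and in none of the 3 did the ranges of the genotypes overlap.

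Of 14 genes for N6-methyladenosine writers, erasers, other YTH readers and the exonuclease XRN1, which YTHDC2 binds, 5 were called higher, 6 lower and 3 were not called (median log2 fold change -0.11). Of the reader genes, *Ythdf2* (-0.75, SE 0.06) and *Ythdf3* (-0.67, SE 0.07) fell, *Ythdf1* rose by 0.28 (SE 0.05), although it was not called on either log2(TPM) scale, and *Ythdc1* rose from 115 ± 3.75 to 149 ± 3.22 CPM (SD, n = 4 each, log2 fold change 0.37, SE 0.04). *Virma*, a scaffold of the writer complex, fell by 0.71 (SE 0.05). Both demethylase genes rose, *Alkbh5* by 0.63 (SE 0.08) and *Fto* by 0.54 (SE 0.06), and over the other settings *Alkbh5* ran from 0.49 to 0.68 and *Fto* from 0.45 to 1.00. *Fto* was highest with length offsets, and *Ythdc1* was lowest, at 0.22, on the log2(TPM + 1) scale. *Xrn1* changed by -0.08 on the log2 scale (SE 0.08, edgeR adjusted p = 0.376), and its sign turned (up to 0.13) with length offsets and on both log2(TPM) scales. On those log2(TPM) scales, tested with limma, 3 of the 14 genes were called higher.

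Cyclin A2 RNA is a known target of the MEIOC and YTHDC2 complex. *Ccna2* rose from 11.1 ± 1.14 to 20.3 ± 1.24 CPM (SD, n = 4 each, log2 fold change 0.87, SE 0.08, edgeR adjusted p = 2.20e-07). Of 16 mitotic cyclin and cell cycle genes 9 were called higher, 6 lower and 1 was not called (median log2 fold change 0.46). *Ccnd3* (2.36, SE 0.06), *Ccnd1* (1.65, SE 0.10) and *Ccnb1* (1.22, SE 0.06) rose most. The S phase genes *Cdk2* (-2.53, SE 0.05) and *Ccne2* (-1.48, SE 0.09) and the mitotic kinase gene *Cdk1* (-0.98, SE 0.06) fell most. Many of these genes also act in the meiotic divisions.

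*Dazl* (chromosome 17, 50279393 to 50293620, protein-coding) encodes an RNA-binding protein that promotes translation in germ cells. It stood at 112, 102, 108 and 103 CPM in *Arid1a* WT and at 188, 177, 188 and 177 CPM in *Arid1a* cKO. Spread within a genotype was small beside the difference. *Dazl* rose 1.71-fold (log2 fold change 0.78, SE 0.05, edgeR adjusted p = 1.99e-09). *Boll*, the other autosomal gene of the DAZ family in the mouse, went the opposite way, from 260 ± 23.2 to 156 ± 4.92 CPM (SD, n = 4 each, log2 fold change -0.74, SE 0.06). The gene most like *Dazl* over the 8 libraries was the meiotic recombinase gene *Dmc1* (r = 1.000 to 3 decimals), although *Dmc1* rose further, by 1.98.

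*Dmrt1* (chromosome 19, 25505618 to 25604328, protein-coding) encodes a DM domain factor made in spermatogonia and in Sertoli cells. Its levels were 24.0, 22.9, 23.6 and 24.3 CPM in *Arid1a* WT and 43.1, 41.5, 44.6 and 42.3 CPM in *Arid1a* cKO. The libraries of each genotype were close together and the genotypes far apart. *Dmrt1* rose 1.81-fold (log2 fold change 0.86, SE 0.05, edgeR adjusted p = 1.50e-09). The 13 tested Sertoli cell markers were all called lower in the same libraries (median log2 fold change -1.47). Falls were 1.99 for *Clu*, 1.59 for *Gata4* and 1.54 for *Wt1* on the log2 scale. Of 18 markers of undifferentiated spermatogonia 8 were called higher, 3 lower and 7 were not called. Of 12 markers of differentiating spermatogonia 6 were called higher, 4 lower and 2 were not called. Which cells carried the rise of *Dmrt1* was not tested. *Hoga1* was most like *Dmrt1* in its pattern (r = 0.999), one of 1593 genes over 0.99.

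*Sohlh2* and *Sohlh1* encode factors that pair with each other or with themselves. *Sohlh2* (chromosome 3, 55182044 to 55209957, protein-coding) was at 7.52, 7.41, 7.22 and 6.82 CPM in *Arid1a* WT and at 16.1, 15.9, 16.6 and 15.9 CPM in *Arid1a* cKO. This was the largest rise of the 8 genes, 2.23-fold (log2 fold change 1.16, SE 0.07, edgeR adjusted p = 1.50e-09). *Jph4* was the gene most like it (r = 0.999), one of 1651 genes over 0.99.

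*Sohlh1* (chromosome 2, 25842995 to 25847248, protein-coding) was the least certain of the 8. It stood at 4.30, 4.12, 4.31 and 4.32 CPM in *Arid1a* WT and at 4.90, 7.02, 5.02 and 5.85 CPM in *Arid1a* cKO. The *Arid1a* cKO libraries were more scattered, and the lowest of them lay close above *Arid1a* WT. The rise was 1.33-fold (log2 fold change 0.41, SE 0.13, 95% interval 0.16 to 0.66, edgeR adjusted p = 0.00924), on 86 to 95 estimated counts per *Arid1a* WT library and 91 to 123 per *Arid1a* cKO library. In TPM the genotypes overlapped (two-sided exact permutation test, p = 0.0571, where the smallest p that 4 against 4 allows is 0.0286), and with limma *Sohlh1* was not called on the log2(TPM + 1) scale (0.23, adjusted p = 0.0976) or on the log2(TPM + 0.1) scale (0.26, adjusted p = 0.0884). No gene had an r over 0.99 with *Sohlh1*, and *Mamdc2* was nearest (r = 0.961).

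The 250 bases before the RefSeq start of *Sohlh1* (GRCm38.p6, minus strand) are shown because *Sohlh1* differs from *Sohlh2* in the letters CACGTG, a palindromic form of the E-box, the class of site that basic helix-loop-helix factors can bind. Other forms of the E-box (CANNTG) were not searched and are not marked. Capitals mark CACGTG and the hexamer AGGTCA, which shares 2 bases with the second CACGTG.
*Sohlh1* chr2:25847249-25847498: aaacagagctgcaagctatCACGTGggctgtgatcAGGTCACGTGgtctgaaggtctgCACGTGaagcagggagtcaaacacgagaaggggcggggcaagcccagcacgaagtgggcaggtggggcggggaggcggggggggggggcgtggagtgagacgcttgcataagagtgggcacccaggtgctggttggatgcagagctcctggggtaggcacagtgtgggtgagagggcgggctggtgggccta
CACGTG occurred 3 times in this window, its first bases 231, 211 and 192 bases before the start. It occurred in 7.15% of the 32851 windows and 3 or more times in 0.0883% of them. The window of *Rbm46* held 1 CACGTG, and those of *Stra8*, *Meioc*, *Dazl* and *Sohlh2* held none. The letters CNCCTCAG, known as a STRA8 motif, occurred once each in the windows of *Sohlh2*, *Rbm46* and *Dazl* and in 7.94% of all windows, and the E2F letters GCGGGAA once in that of *Meioc* and in 4.60% of all windows. Both strands were searched in the 6 windows read here, and no match says only that these letters are not in the window.

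The 13 relatives of the regulators by protein family were called higher in 5 cases and lower in 5, with 3 not called (median log2 fold change 0.02). *Dmrta2* rose from 4.26 ± 1.01 to 28.8 ± 2.40 CPM (SD, n = 4 each, log2 fold change 2.75, SE 0.12), while *Dmrta1* fell by 1.66 (SE 0.12). *Rbm47*, the close relative of *Rbm46*, rose from 8.37 ± 0.646 to 27.7 ± 1.27 CPM (SD, n = 4 each, log2 fold change 1.72, SE 0.07), opposite to *Rbm46*, and *A1cf* of the same family fell by 0.77 (SE 0.07). With at least 10 counts required in every library, 3 of the relatives were called higher. That filter removed *Dmrt2* and *Dmrt3*, at means of 0.385 and 0.367 CPM in *Arid1a* WT. Both were named after their values were seen, and both kept their higher call in all 17 other settings that tested them.

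**Figure D2:**
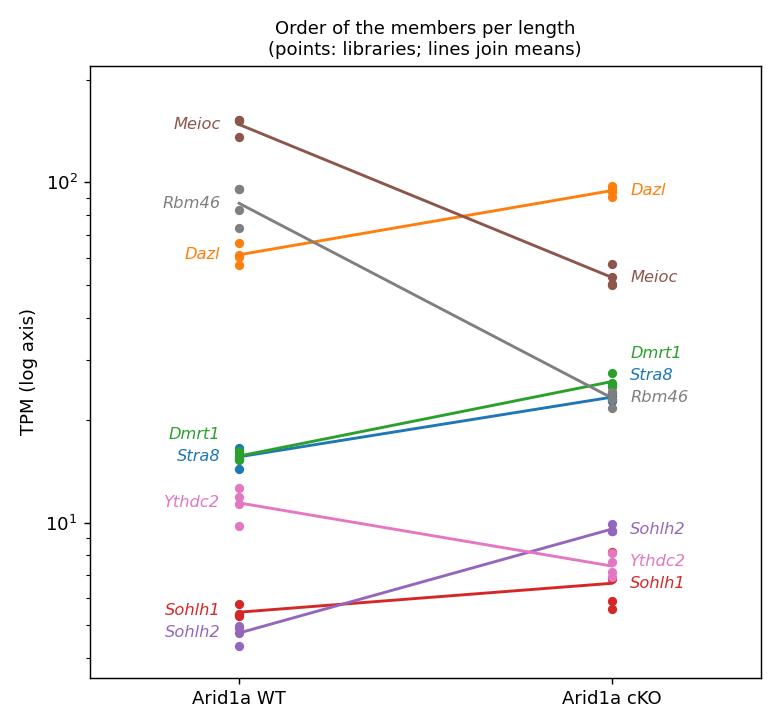
TPM of each regulator (log axis) in the 4 libraries of each genotype, with lines joining the means. *Meioc* falls from the first place in *Arid1a* WT to the second in *Arid1a* cKO, *Rbm46* from the second to the fifth, and *Dazl* rises from the third to the first.

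Levels of different genes were compared per length, as TPM. In *Arid1a* WT the order was *Meioc* (148 ± 7.97 TPM, SD, n = 4), *Rbm46* (86.7 ± 10.7), *Dazl* (61.2 ± 3.77), *Dmrt1* (15.7 ± 0.391), *Stra8* (15.6 ± 0.979), *Ythdc2* (11.4 ± 1.22), *Sohlh1* (5.45 ± 0.201) and *Sohlh2* (4.74 ± 0.281). Only *Dmrt1* and *Stra8* overlapped as neighbours in that order. In *Arid1a* cKO the order was *Dazl* (94.5 ± 2.97 TPM, SD, n = 4), *Meioc* (52.6 ± 3.60), *Dmrt1* (25.9 ± 1.11), *Stra8* (23.3 ± 0.537), *Rbm46* (23.3 ± 1.16), *Sohlh2* (9.56 ± 0.227), *Ythdc2* (7.45 ± 0.539) and *Sohlh1* (6.63 ± 1.18). There *Stra8* overlapped *Rbm46*, and *Ythdc2* overlapped *Sohlh1*.

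The most abundant of the 8 transcripts was therefore that of *Meioc* in *Arid1a* WT and that of *Dazl* in *Arid1a* cKO. The ratio of *Meioc* to *Dazl* TPM was 2.52, 2.47, 2.30 and 2.37 in the *Arid1a* WT libraries and 0.521, 0.579, 0.590 and 0.535 in the *Arid1a* cKO libraries, so it crossed 1 between genotypes. The ratio of *Stra8* to *Meioc* went from a geometric mean of 0.105 to 0.445. The pair *Sohlh1* and *Sohlh2* also changed places, with a ratio of 1.15 in *Arid1a* WT and 0.685 in *Arid1a* cKO. The ratio of *Stra8* to *Dazl*, at 0.255 and 0.247, and that of *Dazl* to *Dmrt1*, at 3.90 and 3.64, moved little by comparison. Summed over the 8 genes, TPM was 349 ± 22.4 in *Arid1a* WT and 243 ± 7.14 in *Arid1a* cKO (SD, n = 4 each), with *Meioc* and *Rbm46* making up most of the *Arid1a* WT sum. Without *Meioc*, the other 7 genes summed to 182 to 216 TPM in *Arid1a* WT and to 188 to 196 TPM in *Arid1a* cKO, which overlap. TPM values of the listed genes totalled 780735 to 811443 in *Arid1a* WT and 880901 to 886412 in *Arid1a* cKO, which moves levels between genotypes but not the order or the ratios within a library.

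**Figure D3:**
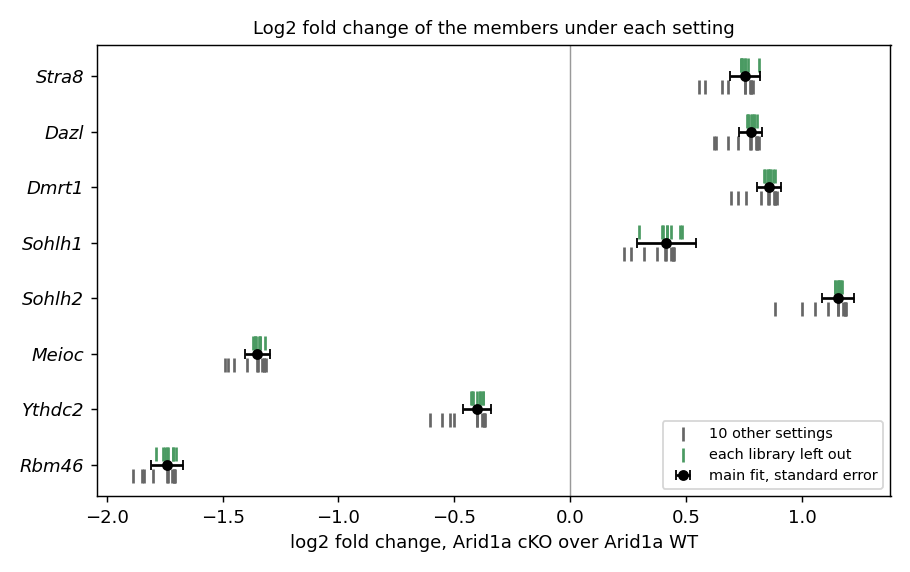
Log2 fold change (*Arid1a* cKO over *Arid1a* WT) of each regulator with its standard error (black), with each of the 8 libraries left out (green ticks) and under 10 other settings (grey ticks). No tick crosses 0, and the range nearest to 0 is that of *Sohlh1*, 0.23 to 0.48.

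Genes that mark the stages in which these regulators act, and other cell types of the testis, were read in the same libraries. Of 18 markers of undifferentiated spermatogonia 8 were called higher, 3 lower and 7 were not called (median log2 fold change 0.27). *Ret* (0.86, SE 0.09), *Zbtb16* (0.76, SE 0.10) and *Taf4b* (0.65, SE 0.06) rose, and *Id4* (-2.65, SE 0.05), *Etv5* (-1.04, SE 0.09) and *Egr4* (-0.31, SE 0.13) fell, although *Egr4* was not called in 8 of 18 other settings. The summed TPM of the list was 71.3 to 80.0 in *Arid1a* WT and 46.0 to 52.6 in *Arid1a* cKO, and *Id4* alone went from a mean of 35.2 to 5.09 TPM. Without *Id4*, left out after its values were seen, the other 17 genes summed to 37.5 to 43.0 TPM in *Arid1a* WT and to 41.0 to 47.5 TPM in *Arid1a* cKO, which overlap. The 8 higher calls became 5 without *Arid1a* WT replicate 2, 5 without *Arid1a* cKO replicate 2, 4 without *Arid1a* cKO replicate 3, 5 without TMM and 4 on each log2(TPM) scale or at an adjusted p of 0.01.

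Of 12 markers of differentiating spermatogonia 6 were called higher, 4 lower and 2 were not called (median log2 fold change 0.19). *Kit*, the receptor gene that SOHLH1 and SOHLH2 are known to activate, rose from 14.7 ± 0.752 to 28.9 ± 0.943 CPM (SD, n = 4 each, log2 fold change 0.98, SE 0.06). *Esx1* (2.27, SE 0.07) and *Prss50* (1.77, SE 0.07) rose more, and *Tex101* (-1.48, SE 0.07), *Stra6* and *Lin28b* (-1.18, SE 0.16) fell. Of 12 leptotene and zygotene markers, 10 of which are also on the list of STRA8 and MEIOSIN targets, 7 were called higher and 5 lower (median log2 fold change 0.69), and their summed TPM was 1287 to 1368 in *Arid1a* WT and 713 to 765 in *Arid1a* cKO. *Dmc1* (1.98, SE 0.09) and *Prdm9* (1.73, SE 0.16) rose with *Rec8*, and *Hormad1* (-1.20, SE 0.07) fell with *Spo11* and *Tex101*. Of the 16 pachytene markers 6 were called higher, 9 lower and 1 was not called (median log2 fold change -0.19), from *Piwil1* (-3.88), *Mybl1* (-1.30) and *Clgn* (-0.75) to *Sycp1* (0.83), *Nme5* (1.04) and *Pgk2* (1.50).

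All 18 markers of round and elongating spermatids were called higher (median log2 fold change 2.15), with *Txndc8* (2.39), *Akap4* (2.38) and *Spaca1* (2.36) leading, and their summed TPM went from between 6783 and 7711 in *Arid1a* WT to between 27989 and 29781 in *Arid1a* cKO. The Sertoli markers summed to 798 to 888 TPM in *Arid1a* WT and to 251 to 267 TPM in *Arid1a* cKO, with *Rhox5* at 0 counts in all 8 libraries. Of 7 Leydig cell markers 6 were called lower and 1 was not called (median log2 fold change -2.94), including *Insl3* (-3.65), *Cyp17a1* (-3.41), *Hsd3b6* (-3.19) and *Cyp11a1* (-2.94), of which *Hsd3b6*, with an average log2 CPM under 1, was named after its values were seen, and their sum went from 78.7 to 92.2 TPM in *Arid1a* WT to 7.27 to 8.91 TPM in *Arid1a* cKO. Of 9 macrophage and blood markers 6 were called higher, 2 lower and 1 was not called (median log2 fold change 1.48), including *Adgre1* (1.70), *Lyz2* (1.63) and *Mrc1* (-1.95), at a sum of 13.6 to 16.5 TPM over all libraries. The PRC1.6 genes summed to 488 to 523 TPM in *Arid1a* WT and to 276 to 279 TPM in *Arid1a* cKO. The summed TPM of each gene list read here, the macrophage and blood markers excepted, did not overlap between the genotypes. With the gene whose mean TPM differed most left out of each list, the spermatid, Sertoli, Leydig, leptotene and zygotene, pachytene and PRC1.6 sums still did not overlap. The sums of the undifferentiated spermatogonia list (without *Id4*), the differentiating spermatogonia list (without *Tex101*) and the N6-methyladenosine list (without *Alkbh5*, 292 to 343 TPM in *Arid1a* WT and 292 to 303 TPM in *Arid1a* cKO) then overlapped, and the macrophage and blood sum (without *Mrc1*) did not. The part of these lists in the changes of the 8 regulators was not tested.

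**Figure D4:**
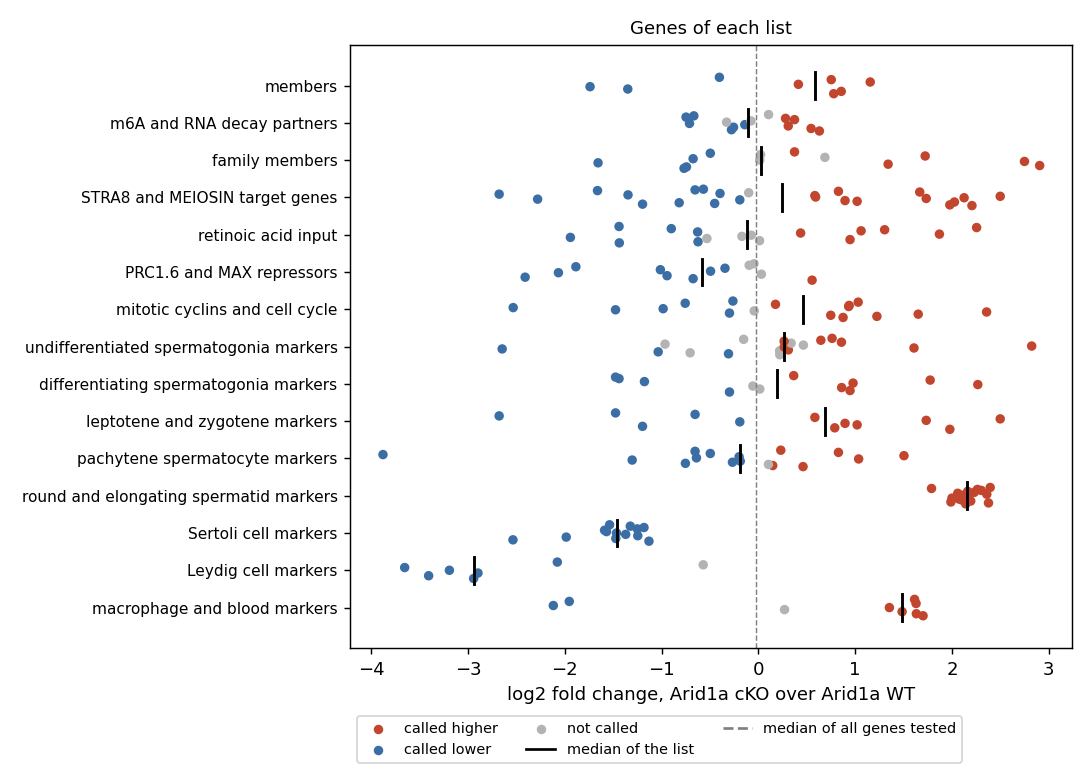
Log2 fold change (*Arid1a* cKO over *Arid1a* WT) of each tested gene of the 8 regulators (named members) and of the 14 other lists, with called genes in red (higher) or blue (lower), genes not called in grey, and the median of each list as a black bar. The spermatid markers all lie right of 0, the Sertoli markers all left of it, and the regulators lie on both sides, with a median of 0.58 beside -0.02 over all genes (dashed line).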

How the data were processed

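RNA-seq libraries of pachytene spermatocytes, 4 per genotype, were grouped by the genotype in their labels, which call them biological replicates. Whether each came from its own purification is not given in the sources used here, so p-values measure the spread between these libraries. The authors quantified reads with Salmon, summed transcripts to Entrez genes with tximport (mm10) and deposited estimated counts per gene, unscaled, and TPM. A list of differentially expressed genes that the authors made with DESeq2 (fold changes and p-values) was not used. The 8 regulators, the gene lists and the alternatives were chosen with earlier results of these data known.

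Entrez IDs were named from RefSeq (21036 of 21058 matched). The counts were not whole and were rounded. For the 17643 genes whose counts summed to at least 10, genotype was tested in edgeR 4.0.16 (R 4.3.3, quasi-likelihood, TMM) with no other factor, and p-values were adjusted over all of these genes by the Benjamini-Hochberg method. The standard error is the log2 fold change over the square root of F. CPM was scaled by TMM, and a prior count of 2 was added for log2 CPM. The procedure was tested on simulated counts. Depth was 15850961 to 22044507 counts, at which 3 counts are 0.136 to 0.189 CPM. Errors are SDs over libraries.

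From each list, the 3 largest rises and falls among called genes (average log2 CPM not under 1) were named, with known partners and targets of the regulators. Promoter windows were those of RefSeq for GRCm38.p6, read for 6 of the 8 genes. Of the 31-base words of their transcripts, *Stra8* shares 0.821% and *Ythdc2* 1.13% with other genes in GENCODE M21, and the other regulators none. Alternatives were DESeq2 1.42.0, limma 3.58.1 on log2(TPM + 1) and log2(TPM + 0.1), other scalings and filters, length offsets, a replicate block and each library left out.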

Additional observations from a re-analysis of the deposited data

Results flagged for a closer look

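In a group of 4, a library was singled out when its gap to the nearest other library exceeded Dixon's 95% critical share of the whole range of the group. Of 16 groups (8 regulators in each genotype) 2 held such a library, where chance alone gives about 0.8. *Stra8* in *Arid1a* WT replicate 4 was the highest of its genotype, at 14.1 CPM against 12.4 to 12.5 CPM in the other 3, a gap of 0.952 of the range. *Sohlh1* in *Arid1a* WT replicate 2 was the lowest of its genotype, at 4.12 CPM against 4.30 to 4.32 CPM, a gap of 0.917 of a narrow range. Both libraries remained on their own side of the *Arid1a* cKO range.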

How the results depend on the processing

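The log2 fold changes of the 8 regulators were recomputed under 18 settings, 144 values in all. The direction was kept in each, and 142 stayed on the same side of the threshold. The other 2 were those of *Sohlh1* with limma on log2(TPM + 1) and log2(TPM + 0.1), at 0.23 and 0.26, so that 4 of the 8 were called higher there. With each library left out in turn, *Sohlh1* ranged from 0.30 to 0.48 with an adjusted p of at most 0.0422, *Stra8* from 0.74 to 0.81, *Rbm46* from -1.79 to -1.70 and *Meioc* from -1.37 to -1.31. *Ythdc2* ran from -0.61, on log2(TPM + 0.1), to -0.37 over the other settings. On log2(TPM + 1), which understates the change of low genes, *Rad21l* was at 1.39, *Rdh10* at 0.66, *Ret* at 0.48, *Cyp11a1* at -1.90, *Hsd3b6* at -1.32, *Adgre1* at 0.82 and *Lyz2* at 1.03. Library size without TMM moved the median of all genes to -0.12, against which the 3 falls and 5 rises kept their direction. Calls over all genes numbered 11566 to 13135. Replicate numbers did not pair the samples (correlations of same-numbered deviations 0.162, 0.0125, 0.0852 and -0.138), and with the replicate number as a block 13100 genes were called against 13048 without it, the 8 regulators included. *Sohlh1* had the fewest counts of the 8, 86 to 123 per library, with an SD of 0.0992 CPM in *Arid1a* WT and 0.978 CPM in *Arid1a* cKO, and the part of depth in that scatter was not tested.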
